A study of Mus musculus with 8 samples.

Results

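The miR-200 family was followed in small RNA libraries of 3A hepatocytes, a non-tumorigenic mouse cell line, and of the EVs they released. Its members are the 3p miRNAs of 5 hairpins, mmu-miR-200a-3p, mmu-miR-200b-3p, mmu-miR-429-3p, mmu-miR-200c-3p and mmu-miR-141-3p, taken by name from the 1978 mouse mature miRNAs of the count table. There were 8 libraries, 2 biological replicates of each of 4 conditions (shCTR and shPCBP2, in cells and in EVs). The RNA-binding protein PCBP2 was targeted by the shRNA of shPCBP2 cells, and that of shCTR cells was scrambled. Both came from a retroviral pSUPER vector and were stably kept by selection with 2 µg/mL puromycin. EVs were purified from medium conditioned for 72 h with EV-depleted serum, and RNA was spiked with cel-miR-39, a miRNA of C. elegans. The knockdown itself is not measured by these libraries, and a lower level can stand for fewer cells that make a miRNA or for less miRNA per cell, which bulk RNA cannot tell apart.

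miR-200 miRNAs repress the transcription factors ZEB1 and ZEB2, which in turn repress E-cadherin, and high levels are a hallmark of epithelial cells. They are made from a pair of genomic clusters, each transcribed as one primary RNA. Target choice follows mainly the seed (bases 2 to 8 of the mature miRNA), and by their seed the members fall into 2 groups that differ by a single base.

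The mature sequences are shown because the seed groups and the genomic clusters cross each other. They are RefSeq sequences of GRCm38.p6, written 5′ to 3′ with the seed in capitals, and all 10 arms of the 5 hairpins were matched by name.
miR-200b-3p (chromosome 4): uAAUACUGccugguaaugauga
miR-429-3p (chromosome 4): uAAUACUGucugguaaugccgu
miR-200c-3p (chromosome 6): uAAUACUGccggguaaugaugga
miR-200a-3p (chromosome 4): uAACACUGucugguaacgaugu
miR-141-3p (chromosome 6): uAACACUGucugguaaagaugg

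No other of the 1679 mouse mature miRNAs in the RefSeq table carries either seed. Counted from base 1 of miR-200b-3p, miR-200c-3p differs from it by U11G and A22G and is 1 base longer, and the seed groups differ by U4C. miR-141-3p differs from miR-200a-3p by C17A and U22G. Reads that end early or carry an error could match both miRNAs of such a pair, and how the counting divided them is not given in the sources used here, so the split within each pair is uncertain. The core of the CELL retention motif, AUUA or AUUG, was searched on the miRNA strand and occurs in 0 of the 5 members. It is present in 8.87% of the 1679 mouse mature miRNAs and in 10.8% of the 753 with 22 bases. Among the opposite arms miR-200b-5p holds AUUG from base 17. The paper also counts an extended CELL motif, and it ties PCBP2 binding to the hEXO motif bound by the protein SYNCRIP. Neither was searched here.

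The hairpins of miR-200b, miR-200a and miR-429 lie within 1846 bases on the minus strand of chromosome 4 (GRCm38, 156053905 to 156055750), inside the protein-coding gene Ttll10. All of them are intronic in Ttll10, and Mir429 also overlaps an exon of the non-coding transcript Gm13648. Those of miR-200c and miR-141 lie within 477 bases on the minus strand of chromosome 6 (124717914 to 124718390), in an intron of the non-coding gene Gm15884, and Mir141 overlaps an exon of the unclassified transcript Gm29008.

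**Figure D1:**
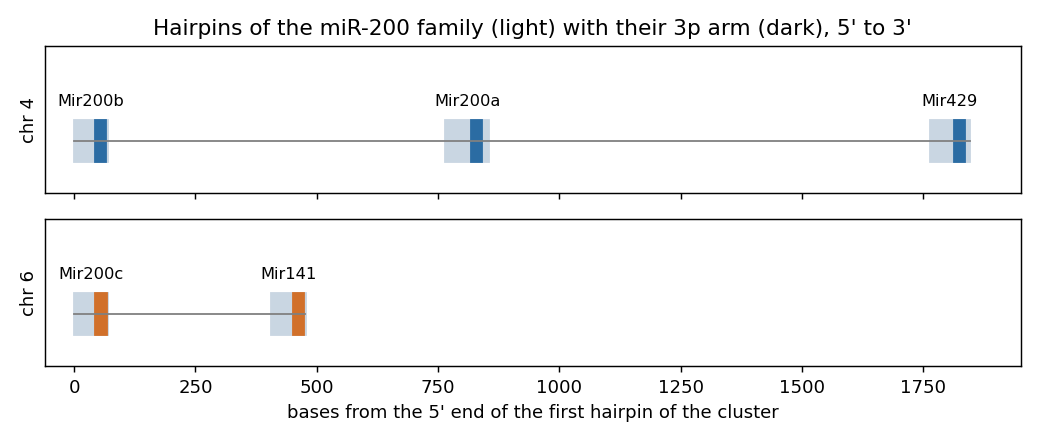
The 5 hairpins of the family along their clusters, with the horizontal axis in bases from the 5′ end of the first hairpin on the transcribed strand. Hairpins are light and the 3p arms dark. The chromosome 4 cluster holds 3 hairpins over 1846 bases and the chromosome 6 cluster 2 hairpins over 477 bases.

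The libraries held 26391248 to 38166798 counted reads. Mouse miRNAs made up 33.1% to 42.6% of them in cells and 1.62% to 2.42% in EVs, with cell shPCBP2 replicate 1 lowest among the cell libraries. Of the liver miRNAs used as markers, miR-194-5p had between 218474 and 342726 counts in cells and miR-192-5p between 10976 and 20510. miR-122-5p, the dominant miRNA of adult hepatocytes, had only 356 to 485. The other liver markers were low in cells as well, with 7 to 75 counts of miR-148a-3p and 1 to 87 of miR-101a-3p. The liver list summed to 229852 to 363848 counts in cells, most of them miR-194-5p, and to 5563 to 9072 in EVs. Of the markers of other cell types, 5 mesenchymal miRNAs summed to 117 to 388 counts in cells and 7 blood miRNAs to 84 to 283, of which miR-451a, miR-144-3p and both arms of miR-142a had none. The 2 endothelial arms of miR-126a summed to 1946 to 2714, about as many as the whole miR-200 family. In EVs the mesenchymal list summed to 2183 to 4798 counts, the blood list to 38102 to 47096 and the endothelial list to 3363 to 4874.

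All members were read in all 4 cell libraries, and together they took 2453 and 2554 counts in shCTR cells and 2582 and 3362 in shPCBP2 cells. Levels are given as spike-in CPM (counts for every 1000000 reads of the spike-in), and the members have 22 or 23 bases, so that length does not enter. Among the 772 mouse miRNAs with cell reads, miR-200b-3p ranked 140, miR-200a-3p 141 and miR-429-3p 160 by mean level. miR-200c-3p ranked 227 and miR-141-3p 364. The chromosome 4 cluster therefore held most of the family's reads in these hepatocytes.

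miR-200c-3p showed the largest difference of the members. It had 180 and 196 counts in shCTR cells and 42 and 70 in shPCBP2 cells. Its level was 10.1 and 12.5 spike-in CPM in shCTR and 2.38 and 3.93 in shPCBP2, so that the groups did not overlap. The log2 change was -1.84 (standard error 0.57), 3.57-fold lower in shPCBP2. Its unadjusted p was 0.0145, and after correction the difference was not called (adjusted p = 0.223, quasi-likelihood test in edgeR, Benjamini-Hochberg).

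Markers of other cell types were lower in the same libraries, and so was the liver list relative to the spike-in. The liver list, most of it miR-194-5p, summed to 20416 and 18679 spike-in CPM in shCTR and to 13026 and 17062 in shPCBP2. Of its 5 miRNAs, 3 were lower in both shPCBP2 libraries. As miRNA CPM the liver list overlapped (28577 and 25124 against 26281 and 24062). The blood list summed to 15.9 and 12.5 spike-in CPM in shCTR and to 4.76 and 5.56 in shPCBP2, with 2 of 7 members lower in both shPCBP2 libraries and 4 without cell reads. The mesenchymal list summed to 21.8 and 15.6 against 6.63 and 13.4, with 3 of 5 lower, among them miR-145a-5p and miR-214-3p, which had no reads in shPCBP2 cells. The endothelial list summed to 152 and 170 against 110 and 123, with 2 of 2 lower. Of all 574 miRNAs tested in cells, 40.4% were lower in both shPCBP2 libraries relative to the spike-in. As miRNA CPM the blood list (22.2 and 16.8 against 9.60 and 7.84) and the mesenchymal list (30.5 and 20.9 against 13.4 and 18.8) were lower as well, and the endothelial list overlapped (213 and 228 against 223 and 174). Their part in the difference of miR-200c-3p was not tested.

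miR-141-3p, made from the same chromosome 6 transcript, had 29 and 35 counts in shCTR cells and 9 and 22 in shPCBP2 cells. Its level was 1.63 and 2.22 spike-in CPM in shCTR against 0.510 and 1.23 in shPCBP2. Both shPCBP2 values were thus below both shCTR values. The log2 change of -1.14 had a standard error of 1.31, larger than the change itself (adjusted p = 0.763, quasi-likelihood test in edgeR, Benjamini-Hochberg).

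miR-200a-3p shares its seed with miR-141-3p but comes from chromosome 4. It had 779 and 855 counts in shCTR cells and 1057 and 1321 in shPCBP2 cells, or 43.7 and 54.3 spike-in CPM against 59.9 and 74.1. Here both shPCBP2 values were above both shCTR values. The log2 change was 0.45 (standard error 0.27, adjusted p = 0.438, quasi-likelihood test in edgeR, Benjamini-Hochberg).

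miR-200b-3p had 962 and 869 counts in shCTR cells and 951 and 1272 in shPCBP2 cells. Relative to the spike-in these were 54.0 and 55.2 against 53.9 and 71.4, which overlap, and the log2 change was 0.20 (standard error 0.27). miR-429-3p had 503 and 599 counts against 523 and 677, and its levels of 28.2 and 38.1 against 29.6 and 38.0 nearly coincided. Its log2 change was 0.029 (standard error 0.32). Neither was called (adjusted p = 0.810 and 0.996, quasi-likelihood test in edgeR, Benjamini-Hochberg).

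**Figure D2:**
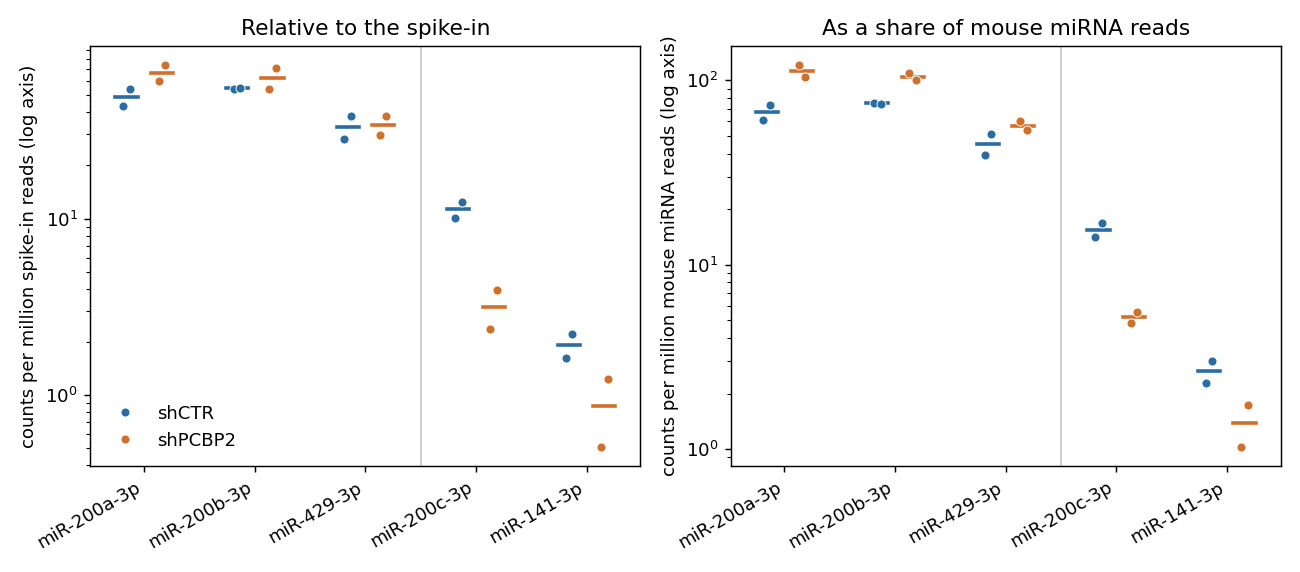
Level of each member in the 4 cell libraries, as spike-in CPM (left) and as miRNA CPM, counts for every 1000000 mouse miRNA reads (right), both on log axes. Points are libraries and bars are means of 2 replicates, with shCTR in blue and shPCBP2 in orange, and the grey line divides the chromosome 4 members from those of chromosome 6. miR-200c-3p and miR-141-3p lie lower in both shPCBP2 libraries on either scale, and the chromosome 4 members lie level or higher.

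Thus 2 of 5 members were lower in both shPCBP2 libraries than in both shCTR libraries, 1 was higher and 2 overlapped. Over all 574 miRNAs tested in cells, 40.4% were lower in this way and 8.54% were higher. None of the members was called at an adjusted p under 0.05, and 1 of 5 had an unadjusted p under 0.05. Of all tested miRNAs, 0.697% were called lower and 0% higher (4 and 0 of 574), with 107 of all tested at an unadjusted p under 0.05. With DESeq2 37 miRNAs were called and with limma voom 16, again with no member. The 4 were miR-129-2-3p, miR-455-3p, miR-129-5p and miR-342-3p, named after their values were seen. Their number became 9 without cell shCTR replicate 1, 16 without cell shPCBP2 replicate 1, 85 without cell shPCBP2 replicate 2, and 0 with all 8 libraries in the fit (51 at an unadjusted p under 0.05).

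The median log2 change was 0.029 for the 5 members and -0.48 for all tested miRNAs, so that the tested miRNAs as a whole were lower relative to the spike-in. Against that median, miR-200a-3p stood at 0.93, miR-200b-3p at 0.68, miR-429-3p at 0.51, miR-141-3p at -0.66 and miR-200c-3p at -1.36. As miRNA CPM, counts for every 1000000 mouse miRNA reads, 3 members were higher in both shPCBP2 libraries and 2 lower, where 16.6% and 31.5% of tested miRNAs were. On this scale miR-200a-3p had 61.2 and 73.1 in shCTR and 121 and 105 in shPCBP2, miR-200b-3p 75.6 and 74.3 against 109 and 101, and miR-429-3p 39.5 and 51.2 against 59.8 and 53.6. When TMM factors replaced the spike-in, miR-200a-3p changed by 0.95 (adjusted p = 0.0263, quasi-likelihood test in edgeR, Benjamini-Hochberg), and with median-of-ratios size factors by 0.96 (adjusted p = 0.0321). With at least 10 counts in every cell library, 336 miRNAs were left and miR-200c-3p passed the correction (log2 change -1.84, adjusted p = 0.0225). These are the only calls of a member among the 13 alternatives run, and over them the adjusted p ranged from 0.0263 to 1 for miR-200a-3p and from 0.0225 to 0.592 for miR-200c-3p.

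**Figure D3:**
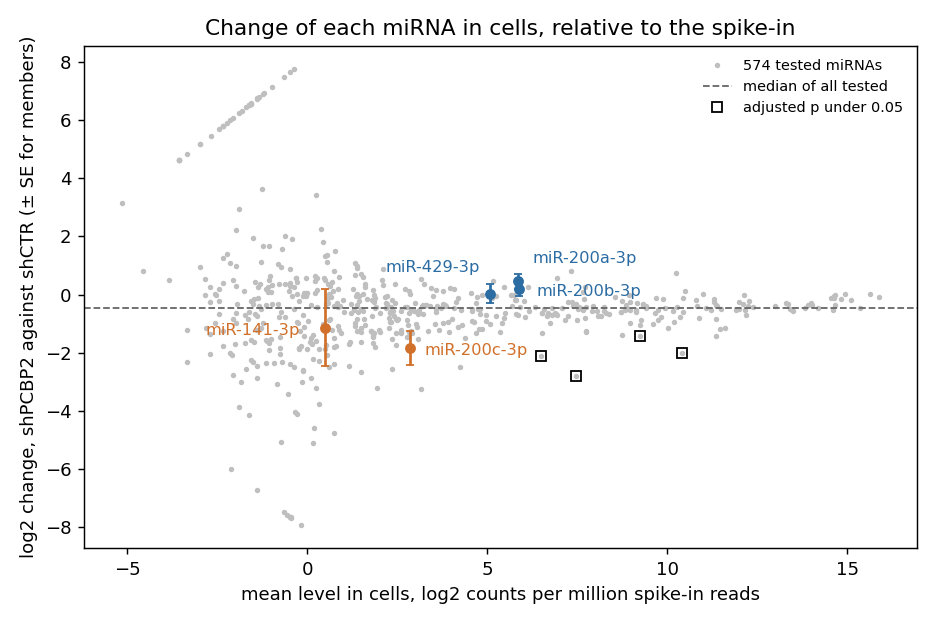
Log2 change in cells between shPCBP2 and shCTR for the 574 tested miRNAs (grey) against their mean level in log2 spike-in CPM. Members are drawn with standard errors, chromosome 4 in blue and chromosome 6 in orange, squares mark the 4 miRNAs with an adjusted p under 0.05, and the slanting rows of points at low levels are miRNAs with no reads in one group. The chromosome 4 members lie above the median of -0.48 (dashed) and miR-200c-3p and miR-141-3p below it.

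Ratios between miRNAs of the same library need no scaling. The chromosome 6 members gave 8.52% and 9.04% of the family's reads in cell shCTR, with 95% Wilson intervals of 7.48% to 9.69% and 7.99% to 10.2%. In cell shPCBP2 they gave 1.98% and 2.74%, with intervals of 1.51% to 2.59% and 2.24% to 3.34%. These intervals cover the counting error of reads only and not the spread between libraries. The methods describe no molecular identifiers to count molecules instead of reads, so the counting error of molecules is not covered either. Expressed as the log2 ratio of the chromosome 6 to the chromosome 4 cluster, shCTR cells had -3.42 and -3.33 and shPCBP2 cells -5.63 and -5.15. The difference was -2.02, a ratio 4.04-fold lower in shPCBP2, against standard deviations between replicates of 0.067 and 0.34. It ranged from -2.26 to -1.77 when each cell library was left out in turn. With 2 libraries on each side the smallest two-sided p of an exact permutation test is 0.333, and no test of this difference was made.

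The same was seen within each seed group. For every 100 counts of miR-200b-3p there were 18.7 and 22.6 counts of miR-200c-3p in shCTR and 4.42 and 5.50 in shPCBP2. For every 100 counts of miR-200a-3p there were 3.72 and 4.09 counts of miR-141-3p in shCTR and 0.851 and 1.67 in shPCBP2. Both ratios were lower in both shPCBP2 libraries, although they are built from the pairs whose reads are hardest to tell apart. How often ratios between other miRNAs separate in this way was not computed. Relative to the spike-in, 40.4% of the 574 tested miRNAs were lower in both shPCBP2 libraries and 8.54% higher. By log2 change, miR-200c-3p ranked 63 from the lowest of these 574. Within each cluster the ratios moved less. For every 100 counts of miR-200b-3p there were 81.0 and 98.4 counts of miR-200a-3p in shCTR and 111 and 104 in shPCBP2, which do not overlap. miR-429-3p had 52.3 and 68.9 counts for every 100 of miR-200b-3p in shCTR and 55.0 and 53.2 in shPCBP2, which overlap. In the chromosome 6 cluster, miR-141-3p had 16.1 and 17.9 counts for every 100 of miR-200c-3p in shCTR. In shPCBP2 it had 21.4 and 31.4, higher in both libraries but from only 9 and 22 counts of miR-141-3p.

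**Figure D4:**
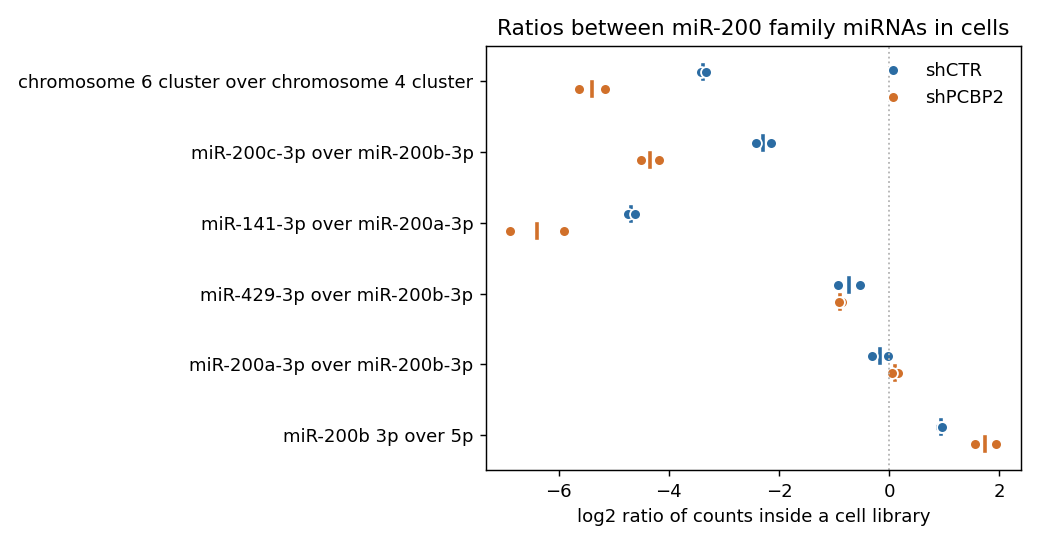
Log2 ratios of counts inside each cell library, with points for libraries and ticks for the mean of 2 replicates, shCTR in blue and shPCBP2 in orange. The ratio of the chromosome 6 to the chromosome 4 cluster lies at -3.42 and -3.33 in shCTR and at -5.63 and -5.15 in shPCBP2, while miR-429-3p over miR-200b-3p overlaps between the conditions.

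The members were also summed by seed, since miRNAs with the same seed share most of their targets. The group with seed AAUACUG, which is miR-200b-3p, miR-200c-3p and miR-429-3p, summed to 92.3 and 106 spike-in CPM in shCTR and to 85.9 and 113 in shPCBP2. The group with seed AACACUG, miR-200a-3p and miR-141-3p, summed to 45.3 and 56.6 in shCTR and to 60.4 and 75.4 in shPCBP2. The shPCBP2 values of the former enclose those of shCTR, and those of the latter lie above them. As miRNA CPM both groups were higher in both shPCBP2 libraries, with 129 and 142 against 173 and 160 for AAUACUG and 63.5 and 76.1 against 122 and 106 for AACACUG.

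The opposite arms are the strands usually discarded when the hairpin is processed. Only 2 of 5 had any reads in at least 2 cell libraries, and miR-429-5p, miR-200c-5p and miR-141-5p had 0 in all 8. miR-200b-5p had 508 and 445 counts in shCTR cells and 247 and 433 in shPCBP2 cells, which is 28.5 and 28.3 against 14.0 and 24.3 spike-in CPM. It was lower in both shPCBP2 libraries on this scale and as miRNA CPM (39.9 and 38.0 against 28.2 and 34.3). Relative to the spike-in its log2 change was -0.57 (standard error 0.38, adjusted p = 0.492, quasi-likelihood test in edgeR, Benjamini-Hochberg). Against the median of all tested miRNAs that change stood at -0.09. miR-200a-5p varied more between the shCTR replicates than between conditions, with 62 and 303 counts in shCTR cells and 220 and 224 in shPCBP2 cells.

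The hairpin of miR-200b is shown with both arms in capitals, since it is the hairpin, of the pair with reads on both arms, whose 3p to 5p ratio did not overlap between the conditions.
Mir200b, chr4:156055681-156055750, minus strand: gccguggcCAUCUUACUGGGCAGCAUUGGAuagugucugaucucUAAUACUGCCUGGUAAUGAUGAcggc

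For every 100 counts of the 5p arm there were 189 and 195 counts of the 3p arm in cell shCTR and 385 and 294 in shPCBP2 cells. The log2 ratio of 3p to 5p was higher by 0.81 in shPCBP2, and by 0.61 to 1.00 when each cell library was left out in turn. Of the 86 hairpins with at least 10 counts on both arms in every cell library, 17.4% had a higher ratio in both shPCBP2 libraries, 8 had a larger increase than miR-200b, and 10 had a decrease larger than its increase. The ratio of miR-200a overlapped between the conditions.

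Other miRNAs known from epithelial cells were listed beside the family. Of 6, miR-205-5p had 5 counts in a single cell library and could not be tested, and the other 5 were lower in both shPCBP2 libraries on both scales, where 40.4% of all tested miRNAs were lower relative to the spike-in and 31.5% as miRNA CPM. Of these 5, 0 were called at an adjusted p under 0.05 by edgeR, 2 had an unadjusted p under 0.05, and 0 were called by DESeq2 or by limma voom. miR-203-3p, a miRNA of differentiating epidermis, had 189 and 102 counts in shCTR cells and 30 and 61 in shPCBP2 cells. Its log2 change of -1.74 (standard error 0.68) was close to that of miR-200c-3p (adjusted p = 0.263, quasi-likelihood test in edgeR, Benjamini-Hochberg). With at least 10 counts in every cell library miR-203-3p was called (adjusted p = 0.0409). The abundant miRNAs of the miR-183 cluster showed smaller differences, with log2 changes of -0.61 for miR-96-5p, -0.54 for miR-182-5p and -0.41 for miR-183-5p. These lie within 0.14 of the median of all tested miRNAs, and with TMM factors the change of miR-183-5p was 0.066. Without cell shPCBP2 replicate 2, miR-96-5p (-0.88, adjusted p = 0.0174) and miR-182-5p (-0.84, adjusted p = 0.0183) were called.

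The miRNAs with the most similar profile over the 4 cell libraries were found by the mean absolute difference of the centred log2 level, among 335 others with at least 10 counts in each. Nearest to miR-200c-3p were miR-129-5p (33604 and 38315 counts in shCTR cells, 7784 and 11186 in shPCBP2 cells), at 0.091, and let-7b-3p, at 0.15. Nearest to miR-200a-3p were miR-378a-3p, at 0.089, and miR-130b-3p, at 0.13. miR-200b-3p was nearest to miR-107-3p, at 0.040, and miR-27a-5p, at 0.052, and miR-429-3p to miR-138-5p, at 0.035, and miR-340-5p, at 0.087. miR-141-3p had 9 counts in one library and was left out.

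In EVs the family was almost unread. miR-200a-3p, miR-200b-3p, miR-200c-3p and miR-141-3p had 0 counts in all 4 EV libraries. miR-429-3p had 256 counts in EV shPCBP2 replicate 1 and 0 in the other EV libraries. In that library its level was 6.82 spike-in CPM, against 29.6 and 38.0 in shPCBP2 cells, but 414 miRNA CPM, against 59.8 and 53.6. No member passed the filter of the methods, reads in 2 or more libraries of cells and also of EVs, so that the study's question, whether PCBP2 silencing alters the EV/cell ratio, could not be tested for this family.

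By counting error alone a count of 0 allows up to 3 counts. With 3 in each EV library, the EV level of shCTR was at least 439-fold lower than the cell level for miR-200a-3p, at least 489-fold for miR-200b-3p, at least 297-fold for miR-429-3p, at least 101-fold for miR-200c-3p and at least 17.3-fold for miR-141-3p, relative to the spike-in. In shPCBP2 the bounds were 751-fold for miR-200a-3p, 702-fold for miR-200b-3p, 35.3-fold for miR-200c-3p and 9.77-fold for miR-141-3p. Such low counts were rare in EVs, where the 5th percentile of the counts above 0 was 36.8 to 71.6. With a count at that percentile in place of 3, the ratio of cells to EVs in shCTR was 27.7 for miR-200a-3p, 30.8 for miR-200b-3p, 18.7 for miR-429-3p, 6.36 for miR-200c-3p and 1.09 for miR-141-3p. In shPCBP2 it was 43.0, 40.2, 2.02 and 0.560 for miR-200a-3p, miR-200b-3p, miR-200c-3p and miR-141-3p. The bounds are therefore far less firm than the limit of 3 counts makes them. The EV libraries hold few mouse miRNA reads of any kind, and on a scale of shares the bounds are lower. With 3 counts, as a share of these reads in shCTR, miR-200a-3p was at least 13.7-fold lower in EVs, miR-200b-3p 15.3-fold, miR-429-3p 9.27-fold and miR-200c-3p 3.16-fold, and for miR-141-3p the depth gave no bound. In shPCBP2 the share gave a bound of 20.8-fold for miR-200a-3p and 19.4-fold for miR-200b-3p and none for miR-200c-3p (0.956) or miR-141-3p (0.256). With the 5th percentile the ratios of shares in shCTR were 0.864, 0.964, 0.584, 0.199 and 0.034 in the order of the members above, so that none of them was shown to hold a lower share in EVs. In shPCBP2 they were 1.19 for miR-200a-3p, 1.11 for miR-200b-3p, 0.055 for miR-200c-3p and 0.015 for miR-141-3p. Over all tested miRNAs, 45.5% were called lower in EVs in shCTR and 44.3% in shPCBP2 (quasi-likelihood test in edgeR, Benjamini-Hochberg over 598 miRNAs, relative to the spike-in). The members passed the filter of that test by their cell reads alone, so no p is given for them. The higher counts of blood, mesenchymal and endothelial markers in EVs go with the same comparison, and their part in it was not tested.

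Depth limits what these zeros can say. At the share they held in cell shCTR, 41.7 counts of miR-200a-3p, 46.5 of miR-200b-3p, 28.1 of miR-429-3p, 9.59 of miR-200c-3p and 1.64 of miR-141-3p would fall to an EV shCTR library of mean depth. Yet few miRNAs were counted at such levels in EVs. Between 4 and 10 miRNAs per EV library had 1 to 40 counts, against 137 to 290 per cell library. The limit of 3 counts covers counting error only, and whether it holds for libraries with so few low counts was not tested. At their cell shares, miR-141-3p in shCTR and miR-200c-3p in shPCBP2 (2.90 counts) stay under 3 counts, as does miR-141-3p in shPCBP2 (0.777 counts). For these, 0 counts cannot tell a lower share in EVs from an equal one. EV shares need not equal cell shares. The listed miR-375-3p had 1.96 and 2.39 miRNA CPM in cell shCTR, yet 183 counts in EV shCTR replicate 1 and 0 in replicate 2. The 9.59 counts of miR-200c-3p in shCTR exceed 3 but lie below the 5th percentile of the EV counts above 0.

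Reads in EVs became more frequent with the cell level. Of the 30 miRNAs with a mean of 1000 to 3000 counts in cells, where miR-200a-3p and miR-200b-3p lie, 24 had reads in at least 1 EV library and 6, these members included, had none. In the class of 300 to 1000 counts, that of miR-429-3p, 25 of 40 had EV reads and 9 had them in a single EV library. Below this, 24 of 59 had EV reads in the class of miR-200c-3p (100 to 300 counts) and 36 of 210 in that of miR-141-3p (10 to 100 counts). In EV shPCBP2 replicate 1, 17 miRNAs were read that had no reads in the other EV libraries, with a median of 137 and a highest count of 272, and the 256 counts of miR-429-3p belong to these.

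**Figure D5:**
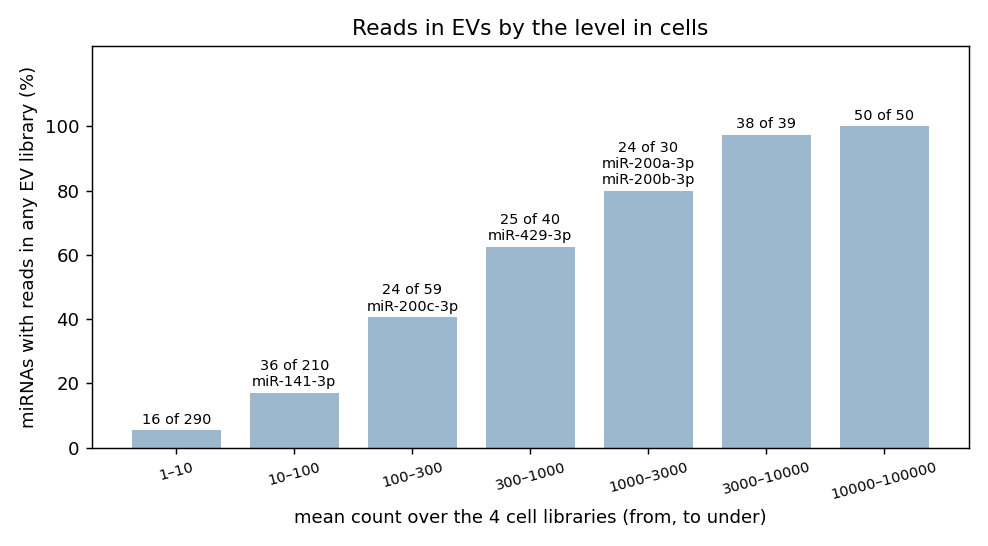
Percentage of mouse miRNAs with reads in any EV library (vertical axis), by their mean count over the 4 cell libraries (horizontal axis). Numbers above the bars give how many of how many, with the members in each class. It rises from 16 of 290 in the lowest class to 50 of 50 in the highest, and is 24 of 30 in the class of miR-200a-3p and miR-200b-3p.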

How the data were processed

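The authors sequenced paired ends and used the trimmed forward reads, which mirPRo mapped with NovoAlign (named in the submitters' processing notes) onto miRBase hairpins and the spike-in. They deposited whole read counts of each mature miRNA with no scaling, those above 999999 being printed to 6 significant digits.

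From these counts, levels relative to 1000000 spike-in or mouse miRNA reads were computed with Python 3.11.15. edgeR 4.0.16 was used in R 4.3.3 (quasi-likelihood test, spike-in counts as library sizes, prior count 0.125, Benjamini-Hochberg adjustment over all tested miRNAs). Cells were fitted on the 4 cell libraries, over miRNAs read in at least 2 of them, and EVs against cells on all 8 libraries with compartment, shRNA and interaction terms, over miRNAs read in at least 2. The study's own filter and fit leave out every member. Standard errors are approximate, as they were derived from F statistics. p-values set a difference against the spread between these libraries, and the estimate of that spread is shared in part over all tested miRNAs.

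Alternatives replaced the spike-in by TMM, median-of-ratios or total-count scaling, the filter by none or by 10 counts in every library, and edgeR by DESeq2 1.42.0 or limma 3.58.1 (voom). Others added a replicate block, changed the libraries in the fit, or left out each library. The ratios between miRNAs of the same library, and leaving out libraries for them, were added after seeing the data. So was the 5th percentile as a limit for EV counts. Members and lists were chosen with earlier results of these data known. The miRNAs named are the members, their opposite arms, 6 other epithelial miRNAs, the 2 nearest profiles of each member with at least 10 counts in every cell library, and markers of liver, mesenchymal, blood and endothelial cells. Replicate numbers are those of the titles, from which the descriptions differ for shPCBP2. Of the mouse miRNAs, 1679 of 1978 matched a RefSeq sequence by name. Annotations are from GENCODE on GRCm38. Motifs other than AUUA and AUUG were not searched here.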

Additional observations from a re-analysis of the deposited data

How the results depend on the processing

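In cells, 4 of 574 miRNAs were called between shPCBP2 and shCTR. This count was 29 with TMM (13 higher, 16 lower), 24 with median-of-ratios (8 and 16) and 34 with total-count scaling (5 and 29), 32 with no filter, 30 with 10 counts required in every library, 37 with DESeq2, 16 with limma voom, 25 with the replicate block, 0 with all 8 libraries in the fit (51 at an unadjusted p under 0.05), and 5 to 85 with one library left out. The median log2 change over the tested miRNAs was -0.48 with the spike-in, 0.00 with TMM, 0.02 with median-of-ratios and -0.20 with total-count scaling. The cause of the differing counts was not tested. EVs and cells differed for 295 of 598 miRNAs in shCTR (23 higher, 272 lower) and 286 in shPCBP2 (21 and 265). The counts were 188 (42 and 146) and 190 (46 and 144) with TMM, 174 (44 and 130) and 183 (46 and 137) with median-of-ratios, 180 (51 and 129) and 179 (62 and 117) with total-count scaling, and 104 and 101 where 10 counts were required in every library, where only 113 miRNAs were left. With one library left out they were 264 to 332 and 243 to 357.

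Of the members, miR-200a-3p kept a positive and miR-200c-3p and miR-141-3p a negative change in every alternative that could be fitted, from 0.29 to 0.96, from -2.24 to -1.35 and from -1.90 to -0.64 on the log2 scale. miR-141-3p has no value where at least 10 counts were required in every library. The sign changed for miR-200b-3p without cell shPCBP2 replicate 2 (-0.019, with a highest value of 0.39 among the libraries left out). It changed for miR-429-3p without cell shCTR replicate 1 (-0.17) or cell shPCBP2 replicate 2 (-0.16, highest 0.26) and for miR-200a-5p without cell shCTR replicate 1 (-0.62, highest 1.85). For miR-183-5p it changed with TMM (0.066) and median-of-ratios scaling (0.083). By the titles' numbers, the deviations of same-numbered cell libraries correlated at 0.06 and those of EV libraries at -0.04 over 598 miRNAs. Whether libraries were paired by experiment cannot be told from this, since the descriptions number the shPCBP2 libraries differently. With the replicate block no member was called, and the log2 change of miR-200c-3p was -1.87 (adjusted p = 0.126, quasi-likelihood test in edgeR, Benjamini-Hochberg).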

Other observations

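EV reads that appeared in only some of the libraries were also seen for other listed miRNAs. miR-375-3p, a miRNA of endocrine and epithelial cells, had 183 and 126 counts in replicate 1 of EV shCTR and EV shPCBP2 and 0 in both replicates 2, against 25 and 28 counts in cell shCTR and 7 and 13 in cell shPCBP2. miR-200a-5p had 124 counts in EV shPCBP2 replicate 1 and 0 in the other EV libraries. miR-183-5p, with 2700 to 4145 counts in cells, had 100 in EV shCTR replicate 2, 90 in EV shPCBP2 replicate 2 and 0 in the others. miR-96-5p was the listed epithelial miRNA that was read in all 4 EV libraries, with 188 to 477 counts.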
